A study of Homo sapiens with 17 samples.

Results

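Interferon-stimulated genes and the genes that carry the interferon signal were followed after induction of NOTCH3IC in neuroblastoma cells. The members were 44 genes listed by name: 4 interferon receptor subunits, 6 transcription factors, and the antiviral and regulatory genes that interferon switches on. Of these, 43 had a probe set annotated to that gene alone, out of 19775 genes with such a probe set, and STAT2 was not analysed here. A gene with several probe sets was represented by the one whose mean log2(signal + 16) was highest, where the signal is the deposited array intensity. An intensity filter, a mean log2 value of at least 4.68 (the 40th percentile of all probe sets), left 32 of the 43 members and 13675 of the 19775 genes for testing.

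The cells were IMR32, a human neuroblastoma line with amplified MYCN. They carried a construct that makes the intracellular domain of the receptor NOTCH3, its active form, when doxycycline is added. There were 2 independent clones, each a single line, and 1 array for each clone and time point. The arrays were grouped as late (times 48, 72 and 96 after doxycycline), time 24, early (times 4, 8 and 12) and start (time 0) in clones c8 and c6, so that late and early had 6 arrays each and time 24 and start had 2 each. Clone c6 had a further array at time 120, which made 9 arrays for c6 and 8 for c8. All groups carried the construct in the same line, and the times are printed as labelled because the labels give no unit. No culture kept without doxycycline past time 0 was analysed here, so time in culture and doxycycline cannot be told apart from NOTCH3IC.

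Interferons are secreted signals of infection. Type I interferons bind the receptor pair IFNAR1 and IFNAR2, whose associated kinases JAK1 and TYK2 phosphorylate STAT proteins. A complex of STAT proteins with IRF9 then enters the nucleus and binds the interferon-stimulated response element (ISRE) in promoters of antiviral genes, while interferon gamma signals through IFNGR1 and IFNGR2.

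The ISRE core was looked for in the RefSeq promoters of the members (assembly GRCh38.p14, 250 bases before to 50 after the gene start). The core searched was GAAA, any 2 bases, and GAAA again, read on both strands (TTTC in place of GAAA on the other), and matches could overlap. A promoter entry was found for 33 members, and 19 of them held a match, against 996 of 27305 promoters in the whole table (3.65%). Of the 25 tested members with an entry, 13 held a match. PARP9 held none, and USP18 had no entry. The Notch pathway's DNA-binding factor RBPJ has the core GTGGGAA, or TTCCCAC on the other strand. That core was in 0 of the same 33 promoters and in 1715 of the 27305 (6.28%). The matches are a description of letters and were not tested against the measurements. The promoters of 5 of the members that the results below turn on follow, each on its gene's own strand, with ISRE matches in capitals. IFI44L lies at chr1:78620198-78620497 and its neighbour IFI44 at chr1:78649539-78649838, both on the plus strand. IFIT1 lies at chr10:89392373-89392672 on the plus strand, BST2 at chr19:17405581-17405880 on the minus strand, and IRF9, which held no match in this window, at chr14:24161015-24161314 on the plus strand.
IFI44L: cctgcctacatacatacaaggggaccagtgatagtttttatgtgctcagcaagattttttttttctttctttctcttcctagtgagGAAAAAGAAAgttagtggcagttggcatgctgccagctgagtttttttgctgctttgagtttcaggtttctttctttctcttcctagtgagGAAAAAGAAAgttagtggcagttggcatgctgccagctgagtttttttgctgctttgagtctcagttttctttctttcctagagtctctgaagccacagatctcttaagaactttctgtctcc
IFI44: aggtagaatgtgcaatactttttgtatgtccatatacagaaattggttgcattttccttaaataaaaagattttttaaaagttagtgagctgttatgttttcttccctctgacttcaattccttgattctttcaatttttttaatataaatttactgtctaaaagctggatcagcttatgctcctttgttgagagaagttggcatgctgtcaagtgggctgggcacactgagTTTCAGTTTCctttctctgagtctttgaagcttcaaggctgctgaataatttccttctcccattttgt
IFIT1: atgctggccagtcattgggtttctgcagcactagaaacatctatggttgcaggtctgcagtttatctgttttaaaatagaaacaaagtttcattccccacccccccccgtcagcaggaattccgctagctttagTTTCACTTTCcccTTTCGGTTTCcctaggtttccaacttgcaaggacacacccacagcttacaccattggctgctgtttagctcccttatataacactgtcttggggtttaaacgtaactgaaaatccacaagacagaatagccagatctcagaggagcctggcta
BST2: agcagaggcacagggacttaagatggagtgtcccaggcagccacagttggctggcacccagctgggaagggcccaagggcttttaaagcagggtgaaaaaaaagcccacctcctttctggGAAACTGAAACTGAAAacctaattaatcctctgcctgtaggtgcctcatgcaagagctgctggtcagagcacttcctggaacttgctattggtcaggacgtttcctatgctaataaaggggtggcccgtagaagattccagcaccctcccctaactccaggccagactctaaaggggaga
IRF9: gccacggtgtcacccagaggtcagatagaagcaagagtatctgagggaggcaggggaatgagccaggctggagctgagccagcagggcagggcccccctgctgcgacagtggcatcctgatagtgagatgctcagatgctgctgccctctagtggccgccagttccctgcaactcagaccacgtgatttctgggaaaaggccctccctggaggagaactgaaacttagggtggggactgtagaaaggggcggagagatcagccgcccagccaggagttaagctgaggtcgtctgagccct
The IFI44L matches began 164 and 73 bases before the gene start, and the match of IFI44 18 bases before it, in the reverse orientation. IFIT1 had matches in the reverse orientation at 116 and 103 bases, and BST2 had overlapping matches at 130 and 124 bases.

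Facts of the arrays as a whole are these. The 2% trimmed mean was 100.01 on all 17 arrays, and the array medians lay between 14.6 and 19.3. NOTCH3 rose late against start (log2 change 1.88 ± 0.19 SE, limma adjusted p = 1.03e-05), as did its target HEY1 (5.53 ± 0.27, adjusted p = 1.08e-08). Of the 7 neuroblast markers measured, 1 rose and 2 fell late against start: STMN2 rose (1.23 ± 0.21, adjusted p = 0.00119), while DBH (-2.19 ± 0.34, adjusted p = 0.000546) and PHOX2A (-0.77 ± 0.13, adjusted p = 0.00127) fell. DBH signals were 3.9 to 56.4 on late arrays and 192.3 and 244.8 on start arrays. MYCN, with signals of at least 4074.6, and GATA3, with at least 3044.8 (both named after their values were seen), make up most of the markers' sum, which was 8582 to 10372 on late arrays and 10944 to 11531 on start arrays. The part of these marker changes in the members' results was not tested. The 8 leukocyte markers summed to 46.3 to 113.5 on late arrays and 64.9 to 70.9 on start arrays, and none of the 8 had a median signal over 25.1. Fewer cells of a type and less RNA per cell cannot be told apart in such bulk samples. The 10 cell division genes had their lowest summed signal on the time 12 array in clone c8 (5404) and on the time 24 array in clone c6 (4432).

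Few of the members changed after induction. Late against start, 3 of the 32 tested members rose and 0 fell (IFIT1, IFI44L and IRF9), or 9.38% of them. Over all 13675 genes 6.94% were called (5.21% higher and 1.73% lower), so the share of members was near the background in this comparison. The median log2 change was 0.08 over the members and 0.02 over all genes. Early against start, 2 members rose and 0 fell (IFI44L and IRF9), or 6.25% of them. Over all genes 2.01% were called (1.29% higher and 0.724% lower), and the median was 0.01 over the members and 0.03 over all genes. At time 24, 3 members (9.38%) were higher than at the start and 0 lower (BST2, IFI44L and IRF9), with 8.18% of all genes called (5.76% higher and 2.42% lower). Late against early, which needs no time 0 array, 2 members rose (IFIT1 and PARP9) and 2 fell (IFI44 and USP18), or 12.5% of them. Over all genes 5.18% were called (3.77% higher and 1.41% lower). The comparisons against start share the same 2 time 0 arrays. Without the time 0 array of clone c6, and likewise without that of c8, the start kept 1 array. The members' calls late and early against start were then lost, and fewer members were called at time 24. The share of all genes called in these fits is not given here, so the loss cannot be read as particular to the members.

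**Figure D1:**
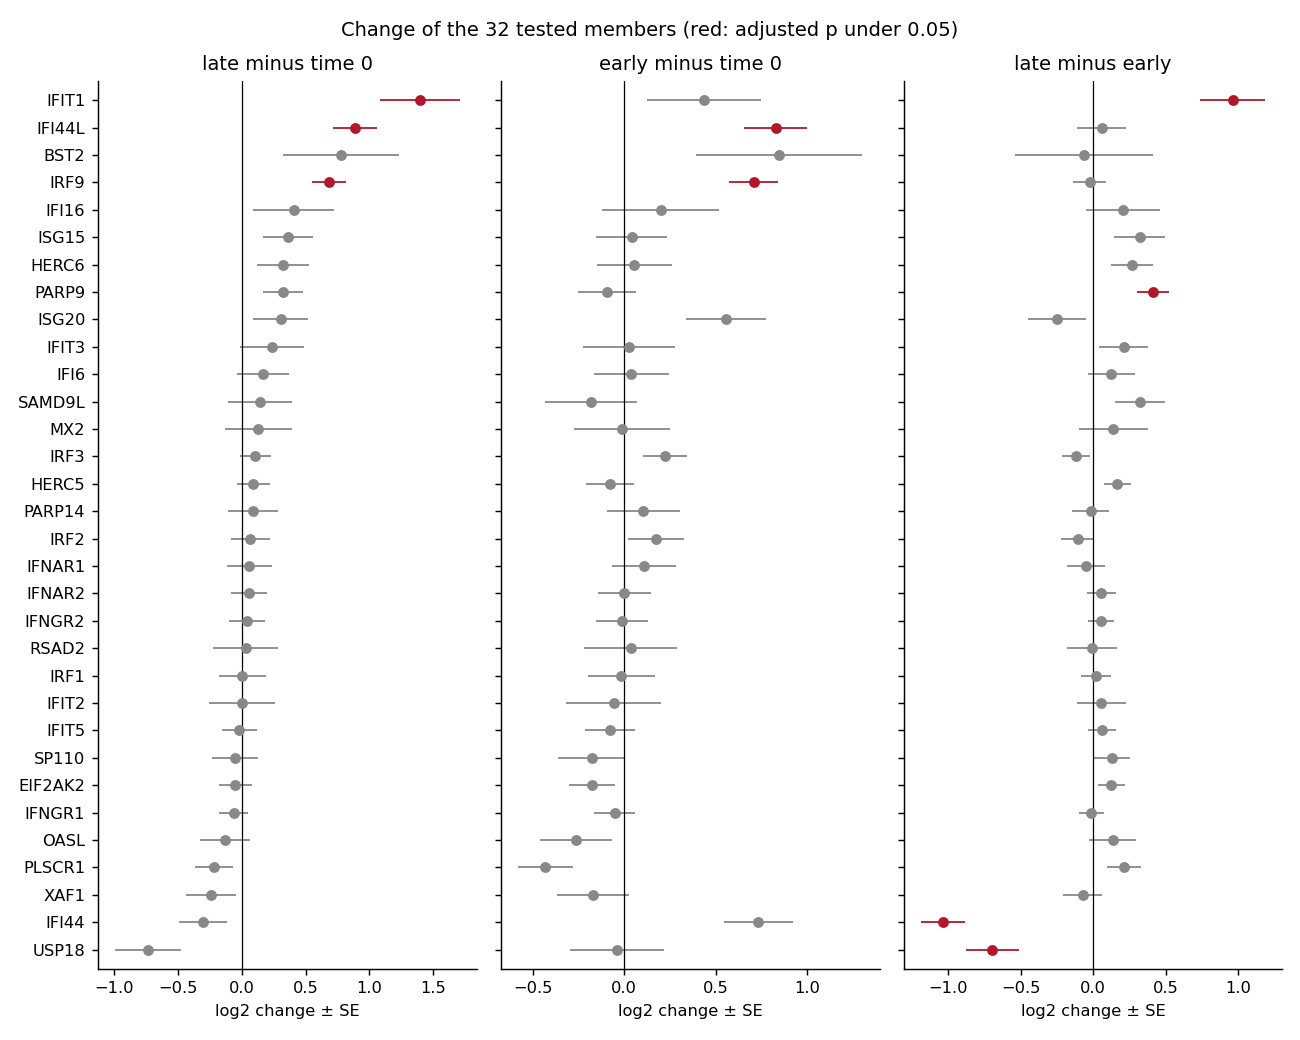
Log2 changes (x axis, ± SE of the limma fit) of the 32 tested members (y axis, ordered by late minus time 0), with late minus time 0 on the left, early minus time 0 in the middle and late minus early on the right. Red points passed an adjusted p of 0.05: 3 on the left, 2 in the middle and 4 on the right, while most members lie within 0.5 log2 units of 0.

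Among the transcription factors, IRF9, the DNA-binding subunit that teams up with STAT proteins on the ISRE, rose early and stayed higher. Along times 0, 4, 8, 12, 24, 48, 72 and 96 its signal was 30.9, 49.6, 56.7, 68.4, 68.2, 49.5, 55.2 and 70.5 in clone c8. In clone c6 it was 33.7, 64.5, 57.6, 84.8, 71.3, 58.2, 68.9 and 69.8 at the same times and 61.9 at time 120. Every later array of both clones lay above its own time 0, and late and early arrays overlapped. The log2 change was 0.68 ± 0.13 late against start (adjusted p = 0.00393) and 0.71 ± 0.13 early against start (adjusted p = 0.0121). It was -0.02 ± 0.11 late against early (adjusted p = 0.957). The early call was lost with no clone term (adjusted p = 0.0643).

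The other interferon regulatory factors passed no test of time. IRF1, a target of interferon gamma that activates antiviral genes, had a log2 change of 0.00 ± 0.18 late against start, and IRF3, which responds to viral nucleic acid, 0.11 ± 0.12. IRF2, a factor that can oppose IRF1, had a change of 0.07 ± 0.15. IRF7, which amplifies the type I response, was below the intensity filter.

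The receptors passed no test of time either. Late against start, the log2 change was 0.06 ± 0.17 for IFNAR1, 0.06 ± 0.14 for IFNAR2, -0.06 ± 0.11 for IFNGR1 and 0.04 ± 0.14 for IFNGR2. IFNGR1 signals lay between 229.7 and 305.8 over the 17 arrays and IFNGR2 signals between 449.4 and 759.8. The ligands were dim: of 8 interferon genes measured, the highest single value on any array was 23.6, and 1 passed the intensity filter. Their summed signal was 20.8 to 50.1 on late arrays and 32.7 to 43.0 on start arrays.

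IFI44L, an interferon-induced gene next to IFI44 on chromosome 1, rose in both phases. Its signal along times 0 to 96 was 2.9, 14.9, 16, 29.8, 32.6, 12.4, 16.7 and 18.5 in clone c8. In clone c6 it was 21.7, 30.1, 43.2, 75.4, 77.9, 51.2, 66.4 and 65.3, with 42.1 at time 120. Both clones were lowest at time 0 and highest at time 24, and all 6 late and all 6 early arrays lay above their own time 0. The log2 change was 0.89 ± 0.17 late against start (adjusted p = 0.00358), 0.83 ± 0.17 early against start (adjusted p = 0.0200) and 1.34 ± 0.21 at time 24 (adjusted p = 0.00112). The size depends on the constant added before the log: the late change was 1.77 with a constant of 1 and 0.40 with 64, and the early change did not pass with 64 (0.36, adjusted p = 0.0647). The early call was also lost with no intensity filter (adjusted p = 0.0589), with phase means (adjusted p = 0.112) and without the time 8 array of c8 (adjusted p = 0.0539). A model with no clone term lost the late call (adjusted p = 0.498), the early call (adjusted p = 0.706) and that at time 24 (adjusted p = 0.283).

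IFI44, which encodes an interferon-induced cytoplasmic protein, went its own way. Its signal was 226.7, 333.4, 379.1, 375.5, 197.4, 182.2, 115.5 and 163.8 along times 0 to 96 in clone c8. In clone c6 it was 181.2, 269.1, 271.5, 507.4, 266.2, 190.3, 185.7 and 142.6, with 124.0 at time 120. The early arrays were the high ones, each above its own time 0, and in both clones every late array lay below every early array, a pattern shared by 1.34% of all genes. IFI44 fell by 1.04 ± 0.15 on the log2 scale late against early (adjusted p = 0.000442). Early against start its change of 0.73 ± 0.19 missed the threshold (adjusted p = 0.0619), and late against start it was -0.30 ± 0.18. The second IFI44 probe set gave -0.73 ± 0.18 late against early, the same direction, without passing the test over all probe sets (adjusted p = 0.0597). IFI44 was called late against early in each clone alone.

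IFIT1, which binds viral RNA that lacks the cell's own cap marks, had the largest change of the 3 members that passed late against start. Its signal was 0.6, 1.6, 7.7, 10.8, 27.9, 27.6, 29.1 and 42.1 along times 0 to 96 in clone c8. In clone c6 it was 1.8, 11.2, 1.0, 14.7, 1.6, 7.1, 44 and 38.5, with 38.8 at time 120. All 6 late arrays lay above their own time 0. Late stood above early throughout in c8 but not in c6, where time 48 (7.1) was below times 4 and 12. The log2 change was 1.40 ± 0.31 late against start (adjusted p = 0.0105) and 0.96 ± 0.23 late against early (adjusted p = 0.0170). As the start signals were below all array medians, the late change moved to 3.75 with an added constant of 1 and to 0.54 with 64, and it passed with each. Late against early it was 2.06 and 0.40 with the same constants, and it did not pass without the time 72 or 96 array of c6 or the time 96 array of c8 (adjusted p from 0.0506 to 0.0536).

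The other IFIT genes, which encode relatives of IFIT1, passed no test of time with their probe set of highest mean. The log2 change late against start was -0.00 ± 0.26 for IFIT2, 0.24 ± 0.25 for IFIT3 and -0.02 ± 0.14 for IFIT5, a member with signals of 435.6 to 664.5. The probe sets of IFIT3 disagreed. The dimmer one had signals of 3.2, 0.7, 5.5, 6.1, 24.6, 32, 21.3 and 22.3 along times 0 to 96 in clone c8. The signals in clone c6 were 5.7, 5.1, 4.6, 8.3, 5, 14.9, 23.4 and 22.5, with 20.5 at time 120. Every late array lay above every early array and above time 0 in both clones. Tested among all probe sets, its log2 change was 0.88 ± 0.13 late against early (adjusted p = 0.00150) and 0.91 ± 0.23 late against start (adjusted p = 0.0579). The IFIT3 probe set used for the counts gave 0.21 ± 0.17 late against early. With the probe sets of each gene averaged, IFIT3 was among the 3 of 27 members called late against early.

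**Figure D2:**
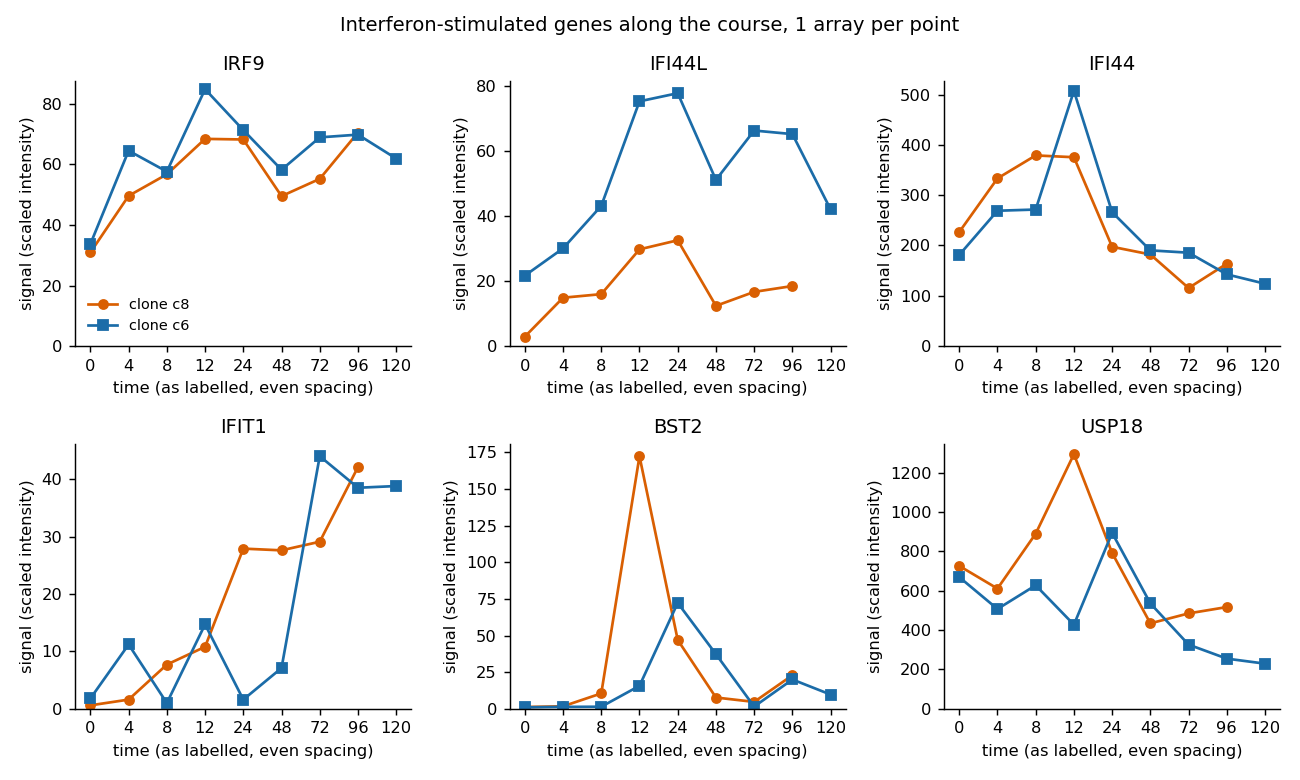
Signal (y axis, scaled intensity) of 6 members against time as labelled (x axis, evenly spaced), with clone c8 as circles and clone c6 as squares and 1 array per point, so no error bars. IFI44 is highest at times 8 to 12 and low late, IFIT1 is highest at times 72 to 96, and BST2 peaks at time 12 in c8 and at time 24 in c6.

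BST2, tetherin, which holds budding virus particles at the cell surface, had a short peak. Its signal was 1.2, 1.7, 10.5, 172.4, 47.0, 7.7, 4.7 and 22.9 along times 0 to 96 in clone c8. The signal in clone c6 was 1.0, 1.3, 1.4, 15.7, 72.3, 37.3, 1.5 and 20.0, with 9.7 at time 120. The peak stood at time 12 in c8 and at time 24 in c6, the array of lowest summed cell division signal in each clone; the part of that difference between arrays in the BST2 peak was not tested. At time 24 the log2 change was 2.12 ± 0.56 (adjusted p = 0.0299). With an added constant of 1 it was 4.82, and with 64 it was 0.92 and did not pass (adjusted p = 0.0835). Without the time 24 array of c6 it was 1.71 (adjusted p = 0.326), and the call was also lost with no filter (adjusted p = 0.0680), no intensity trend (adjusted p = 0.0611) and no clone term (adjusted p = 0.0729). Late against start it was 0.78 ± 0.46 (adjusted p = 0.403), although all 6 late arrays lay above their own time 0.

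The genes of the ISG15 system attach a ubiquitin-like protein to other proteins or remove it. USP18, the protease that removes ISG15 and also restrains the type I receptor, had signals of 726.7, 611.3, 890.5, 1294.7, 792.5, 434.5, 485.1 and 517.3 along times 0 to 96 in clone c8. In clone c6 they were 669.7, 507.5, 628.0, 427.7, 894.5, 536.0, 326.3 and 255.1, with 229.5 at time 120. All 6 late arrays lay below their own time 0, and the late arrays lay below the early ones in c8 and overlapped them in c6. USP18 fell by 0.70 ± 0.18 on the log2 scale late against early (adjusted p = 0.0330). That call was lost in 11 of the other settings, among them no intensity filter (adjusted p = 0.0642) and no clone term (adjusted p = 0.151), and 7 that left out 1 array (time 8, 72 or 96 of c6, or time 8, 48, 72 or 96 of c8; adjusted p from 0.0631 to 0.0940). Late against start the change was -0.74 ± 0.26 (adjusted p = 0.115). USP18 has a near-identical copy, USP41, and which of them the probe set reads was not tested.

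ISG15 itself, the ubiquitin-like modifier, had signals of 17.3 to 74.5, highest at time 12 in c8 and at time 24 in c6. Its log2 change was 0.36 ± 0.20 late against start (adjusted p = 0.359) and 0.79 ± 0.24 at time 24 (adjusted p = 0.0567). HERC5, the main ligase for ISG15, had a late change of 0.09 ± 0.13, and its relative HERC6 of 0.32 ± 0.20. HERC6 and ISG15 had all 6 late arrays above their own time 0 without passing the test.

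PARP9, an ADP-ribosyltransferase family member that works with the ubiquitin ligase DTX3L, was higher late than early. Its signal was 33.7, 36.9, 36.1, 49.6, 61.3, 60.8, 51.8 and 57.7 along times 0 to 96 in clone c8. The signal in clone c6 was 61.7, 42.6, 41.0, 48.9, 68.7, 55.8, 64.9 and 82.5, with 89.4 at time 120. Every late array lay above every early array of its clone, as for 2.71% of all genes. The log2 change late against early was 0.41 ± 0.11 (adjusted p = 0.0345). That call was lost in 11 of the other settings, of which 8 left out 1 array (time 4, 8, 72 or 96 of c6, or time 4, 8, 48 or 96 of c8; adjusted p from 0.0701 to 0.0974). With the mean of both PARP9 probe sets it was 0.27 (adjusted p = 0.201), and the second probe set alone gave 0.12 ± 0.15. PARP14, of the same enzyme family, had a change of -0.02 ± 0.13 late against early.

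The remaining effectors passed no test of time with their probe set of highest mean. ISG20, an exonuclease that degrades viral RNA, had a log2 change of 0.56 ± 0.22 early against start (adjusted p = 0.243), with all 6 early arrays above their own time 0. The dimmer ISG20 probe set gave 0.27 ± 0.43. Its time 4 signal was below the start in both clones (1.7 against 3.5 in c8, 1.6 against 2.7 in c6), and its other early signals were above. PLSCR1, a phospholipid scramblase, had -0.43 ± 0.15 early against start (adjusted p = 0.188), with all 6 early arrays below their own time 0. A second PLSCR1 probe set had early signals of 91, 79.1 and 79.1 in clone c8, against 173 at its start, and 109.1, 90.9 and 61.5 in clone c6, against 199.2 at its start. On that probe set PLSCR1 fell by 1.01 ± 0.13 on the log2 scale early against start (adjusted p = 0.00420 among all probe sets), and late against start it had -0.53 ± 0.13 (adjusted p = 0.0564). The dimmest PLSCR1 probe set, with signals of at most 4.7, gave -0.15 ± 0.10 early against start. With averaged probe sets PLSCR1 was called lower early against start. EIF2AK2, the kinase PKR that stops translation on double-stranded RNA, had -0.05 ± 0.13 late against start, and its other probe sets 0.10 ± 0.12 and 0.07 ± 0.23. OASL, a relative of the oligoadenylate synthetases, had -0.13 ± 0.20, and its other probe set 0.32 ± 0.22. RSAD2, viperin, had 0.03 ± 0.25, the GTPase MX2 0.13 ± 0.26, XAF1, a promoter of apoptosis, -0.24 ± 0.20, and the nuclear body protein SP110 -0.05 ± 0.18, with 0.03 to 0.34 on its 4 other probe sets. SAMD9L had 0.15 ± 0.25. The dimmer XAF1 probe sets mostly went the other way. The second had late signals of 7.3, 5.9 and 12.1 in c8, against 1.1 at the start. In c6 they were 9.6, 12.4 and 3.3, against 3.8 at the start. The dimmest XAF1 probe set had late signals of 6.9, 4.1 and 5.1 in c8, against 1 at the start. In c6 they were 1, 6.4 and 1.4, against 0.3 at the start. IFI6, a mitochondrial protein, had 0.17 ± 0.20, and IFI16, a nuclear sensor of DNA, had 0.41 ± 0.32 late against start. Other IFI16 probe sets gave 0.39 ± 0.31 and, on the dimmest, 0.68 ± 0.27 (limma adjusted p = 0.703 and 0.296 among all probe sets).

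The 11 members below the intensity filter were IRF7, the sensors IFIH1 and DDX60, the oligoadenylate synthetases OAS1, OAS2 and OAS3, IFI27, IFI35, MX1, TRIM22 and SAMD9. On the probe set of highest mean their signals lay between 0.2 and 18.1 over all 17 arrays, and no median was above 8.9. In the limma fit over all probe sets, with no intensity filter, 0 of these 11 were called on that probe set. This held late, early and at time 24 against start and late against early. On it, 0 had an unadjusted p under 0.05 (lowest adjusted p = 0.370). Their dimmer probe sets were not in that count. The dimmest OAS2 probe set had -0.24 ± 0.07 late against early (limma unadjusted p = 0.00379, adjusted p = 0.118). The dimmer OAS3 probe set had 0.31 ± 0.14 early against start (limma unadjusted p = 0.0409, adjusted p = 0.491).

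The members' patterns over time were also counted. Change over time in any pattern was called for 4 of the 32 members (12.5%: IFI44, IFI44L, IRF9 and IFIT1), with 6.61% of all genes called. All 6 late arrays lay above their own time 0 for 7 members, with 16.9% of all genes, and below it for 3, with 12.7%. All 6 early arrays lay above for 6 members, with 11.8% of all genes, and below for 1, with 9.62%. Time 0 was the lowest array in both clones for 3 members, with 5.22% of all genes. The early arrays lay on opposite sides of time 0 in the 2 clones for 4 members, with 7.03% of all genes, and the late arrays for 3, with 7.61%. The highest array was at time 12 or 24 in both clones for 10 members (31.2% of them), with 13.4% of all genes. For 6 of the 32 members (18.8%) it was the time 12 array in c8 and the time 24 array in c6, with 7.56% of all genes: BST2, IFNGR1, ISG15, RSAD2, SP110 and USP18. These are the arrays of lowest summed cell division signal, and the part of that in the counts was not tested. With both arrays left out, a setting chosen after seeing the data, early against start called 4 members (IFI44, IFI44L and IRF9 higher, PLSCR1 lower), and late against start USP18 was called lower besides the 3 that rose. The share of all genes called in that setting is not given here, so the added calls cannot be read as particular to the members.

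**Figure D3:**
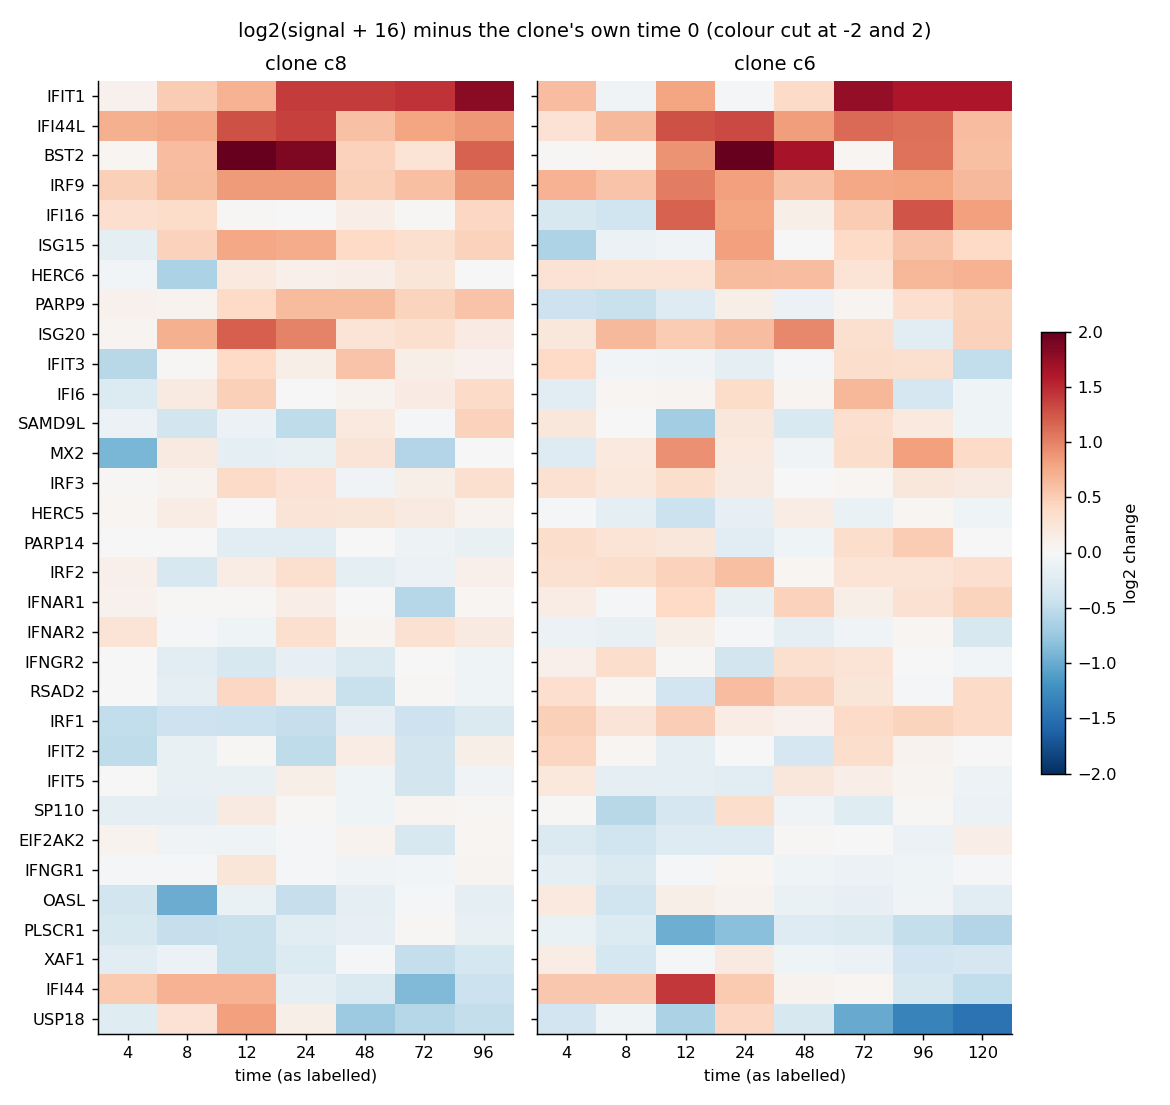
Log2 change from the clone's own time 0 (colour, red higher and blue lower, with the colour scale stopping at its printed ends) for the 32 tested members (rows, ordered by late minus time 0) at each later time (columns), clone c8 on the left and clone c6 on the right. IFIT1, IFI44L and IRF9 are red on the late arrays of both clones, IFI44 is red at times 4 to 12 in both clones, and USP18 is blue late.

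The clones were compared as c8 minus c6. The response, late minus early, differed between the clones for 0 of the 32 members (limma interaction, 0 at an unadjusted p under 0.05), with 0% of all genes called. As no gene at all was called, this does not show that the clones responded alike. The level over the 8 shared times differed for 4 members, with 21.7% of all genes called (1 higher in c8 and 3 lower, with 11.4% of all genes higher and 10.2% lower). IFI44L was lower in c8 at each of the 8 shared times, with a log2 difference of -1.03 ± 0.11 (adjusted p = 1.36e-05). IFI16 had signals of 7.2 to 14.9 (median 8.6) in c8 and 11.0 to 69.4 (median 34.5) in c6, a difference of -0.84 ± 0.20 (adjusted p = 0.00681), and c8 was the lower clone at 6 of the 8 times. IRF2 had signals of 40.7 to 72.8 (median 57.3) in c8 and 28.2 to 50.9 (median 38.7) in c6, a difference of 0.40 ± 0.09 (adjusted p = 0.00686), with c8 higher at all 8 shared times. IFNGR2 had signals of 449.4 to 565.3 (median 518) in c8 and 455.2 to 759.8 (median 600) in c6, a difference of -0.29 ± 0.09 (adjusted p = 0.0262), and that call was lost in 10 of the other settings: median centring (adjusted p = 0.0564), no intensity trend (adjusted p = 0.0531) and leaving out time 8, 12, 48 or 72 of either clone (adjusted p from 0.0503 to 0.0745). The ratio of the 3′ to the 5′ probe set of ACTB, a measure of RNA integrity, was 1.56 to 1.70 in c8 and 1.22 to 1.49 in c6, and its part in these differences was not tested. That of GAPDH was 0.93 to 1.06 in c8 and 0.997 to 1.12 in c6.

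Other genes of the pathway were counted for comparison. Of 10 kinases and brakes of the pathway, JAK1, the kinase of both interferon receptor types, rose late against start and 9 did not pass. JAK1 signals on the late arrays were 920.6, 845.7 and 896.1 in c8, against 585.3 at its start, and 974.0, 893.2 and 934.0 in c6, against 555.1 at its start. The log2 change was 0.66 ± 0.12 (adjusted p = 0.00206). Of 11 genes upstream of interferon production, such as nucleic acid sensors and their adaptors, 0 passed late against start and 1 had an unadjusted p under 0.05 by limma. Of 23 other interferon-induced genes, 4 rose and 0 fell late against start (17.4%, with 6.94% of all genes called). These were GBP2, a guanylate-binding protein (0.97 ± 0.21, adjusted p = 0.00747), CMPK2, a mitochondrial nucleotide kinase (0.69 ± 0.16, adjusted p = 0.0115), DTX3L (0.69 ± 0.16, adjusted p = 0.0122) and the chemokine CXCL10 (1.14 ± 0.29, adjusted p = 0.0236), the last named after its values were seen. DTX3L, the partner of PARP9, had late signals of 112.5, 109.8 and 112.5 in c8, against early signals of 49.2, 56.1 and 89.5. In c6 they were 145.1, 136.9 and 99.1 late, against 52.4, 59.7 and 64.7 early, so that each late signal was above each early one. DTX3L rose by 0.80 ± 0.13 late against early (adjusted p = 0.000866).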

How the data were processed

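RNA of 17 arrays was measured as probe set intensity. The authors deposited intensities in linear units; MAS5 and GCOS are named, with no version, per the submitters' processing notes. The detection calls and scanner files were not used here. From the values, each array was scaled to one trimmed mean, and no further normalization was added. The platform annotation gave 1 symbol for 41097 of 54675 probe sets, several for 1801 and none for 11777. Of the 41097, 41043 matched a RefSeq gene table (GRCh38.p14) by gene identifier, and 0 symbols changed.

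Values were taken as log2(signal + 16), so changes of dim genes are understated. Tests used limma 3.58.1 in R 4.3.3 (lmFit and trended eBayes), and p-values were adjusted by Benjamini-Hochberg over all 13675 genes and a threshold of 0.05. Comparisons against start fitted time points and clone on all 17 arrays (7 residual degrees of freedom), and change over time was the F test over the time terms of that fit. Late against early was fitted on 12 arrays with phase and clone (9 degrees of freedom). The response of the clones was compared by the interaction of these terms (8), and their level on 16 arrays at shared times (7). Neighbouring times serve as the replicates of a phase. The labels do not say whether time points were separate cultures, so the spread behind the p-values is that of these arrays and may be technical. The labels pair arrays by clone; clone differences at the 8 shared times correlated between 0.13 and 0.49 across genes. No pair of arrays had over 1.42% of values equal.

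Values on every array are given for members past the threshold in a test of time; other members are given by ranges and counts, and of each other list up to 3 genes of smallest p in late against start. The members, lists and tests were chosen with earlier results of these data known. The fits were tested on simulated data. Other settings tried were added constants (pseudocounts) of 1 and 64, median centring or quantile normalization, the filter dropped or moved to the 60th percentile, averaged probe sets, untrended eBayes, the clone or time block removed, phase means (one term per phase), single clones, and leaving out arrays one by one. The number of arrays limits the precision.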

Additional observations from a re-analysis of the deposited data

Results flagged for a closer look

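Of the 32 tested members, 5 had all 3 arrays of a phase on one side of their own time 0 in clone c8 and all 3 on the other side in clone c6. Such opposite early arrays were found for 4 members (12.5%), with 7.03% of all genes, and opposite late arrays for 3 (9.38%), with 7.61% of all genes. Each difference below is a mean log2 difference from 1 time 0 array, on the probe set of highest mean. No test was made of how the clones differ in it.

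IRF1 had -0.44 in c8 and 0.41 in c6 early against start, and -0.29 in c8 and 0.30 in c6 late against start. The other, dimmer IRF1 probe set was lower early than at the start in both clones. Its early signals were 3.5, 2.6 and 2.1 in c8, against 12.8 at the start. In c6 they were 3.7, 8.8 and 2.5, against 11.8 at the start. IFNGR2 had -0.18 in c8 and 0.16 in c6 early, and -0.12 in c8 and 0.20 in c6 late. IFIT5 had -0.18 in c8 and 0.14 in c6 late against start. On the other IFIT5 probe set the late arrays lay on both sides of time 0 in each clone. The late signals there were 239.7, 179.4 and 202.9 in c8, against 213.5 at the start. In c6 they were 282.2, 250 and 205.4, against 215.7 at the start. HERC5 had 0.068 in c8 and -0.22 in c6 early against start. PARP9 had 0.19 in c8 and -0.37 in c6 early against start. On the second PARP9 probe set the early arrays lay on both sides of time 0 in each clone. The early signals there were 10.2, 20.2 and 17.6 in c8, against 19.1 at the start. In c6 they were 28.1, 13 and 25.6, against 25.4 at the start.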

How the results depend on the processing

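Members called in a comparison kept their direction in the settings rerun for them; members that were not called, and the clones taken singly, were not followed in this way. The count of members called early against start was 2, and became 1 with a pseudocount of 64, with no filter and with phase means, 0 with no replicate block (no clone term), and 4 with both arrays of lowest cell division signal left out, a setting chosen after seeing the data. With averaged probe sets, which left 27 members, it was 3, with PLSCR1 lower. At time 24 the count was 3, and 1 without the clone block. Late against early it was 4, and 2 with no filter or without the clone block. For change over time it was 4, with 2 under no filter and 1 without the clone block. The clone is the pairing that the labels give. The shares of all genes called in these settings are not given here, so the moves cannot be read as particular to the members.

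With each array left out in turn, the count ranged from 0 to 4 late against start and from 0 to 3 early against start, with 0 in both without either time 0 array and 1 early against start without time 8 of c8. At time 24 it ranged from 1 to 5, with 1 without either time 0 array and 5 without either time 12 array. Late against early it ranged from 1 to 4, with 1 without time 72 or 96 of c6 or time 96 of c8, and 2 without time 8 of either clone or time 48 of c8. For change over time it ranged from 1 to 7, with 1 without either time 0 array, 2 without time 8 or 96 of either clone and 7 without time 12 of c8. For the clone difference in level it ranged from 3 to 6, and for the response it was 0 throughout. Leaving out an array lowers the number of samples, and other causes of these moves were not tested. The shares of all genes called with an array left out are not given here, so these moves cannot be read as particular to the members.

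Array medians on the log2 scale lay between -0.10 and 0.10 of their mean. Detection calls were not used, so signals under the array medians, such as those of BST2 and IFIT1 at the start, carry no stated background level.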

Other observations

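Clone levels of the related lists, c8 minus c6 over the 8 shared times, were counted with the same fit (21.7% of all genes called). Of the 23 other interferon-induced genes tested, 3 were higher and 3 lower in c8. Of the 11 genes upstream of interferon production, 1 was higher and 2 were lower, and of the 10 kinases and brakes of the pathway, 0 were higher and 2 lower. CMPK2, which rose late against start, was also higher in c8 by 0.48 ± 0.10 (limma adjusted p = 0.00265).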
